A study of Mus musculus with 9 samples.

Results

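The 41 genes described here encode the regulators of mitosis and of the spindle checkpoint, and were listed by function: the Cdk1 engine, mitotic kinases, the chromosomal passenger complex, the checkpoint itself, the NDC80 complex, the anaphase machinery, spindle factors and cytokinesis factors. Kinesins and the CENP, condensin and cohesin genes were left out. Of these, 39 had a probe listed with a single gene symbol on the array, and 31 passed the filter on dim probes and were tested, among 11009 tested genes. The arrays held total RNA of neural stem and progenitor cells (NSCs/NPCs) cultured from the hippocampus/dentate gyrus of adult C57BL6 mice, with 3 arrays per stage. The proliferation samples were floating neurospheres grown in NeuroCult medium with added growth factors. The early differentiation (day 2) and late differentiation (day 7) samples were dissociated cells on dishes coated with Poly-D-Lysine and Laminin, in which the medium had been replaced by one with a differentiation supplement. The samples of each stage were labelled as biological replicates, and no source used here tells whether they came from separate animals or cultures, so that p-values measure the spread between these samples. Stage therefore also stands for the growth factors, the attachment to a coated dish and the time in culture, which cannot be told apart.

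Mitosis is driven by the kinase Cdk1 with its cyclins, which the Cdc25 phosphatases switch on. Polo and Aurora kinases then build the spindle, while the checkpoint proteins hold Cdc20, an activator of the anaphase-promoting complex (APC/C), until every kinetochore has attached to microtubules. Once Cdc20 is released, securin is destroyed, separase cuts cohesin and the cell divides. Most of the transcripts are made only in cells that approach division, under the MuvB complexes and FoxM1, which act at the cell cycle genes homology region (CHR), and NF-Y, which binds the CCAAT box. In the adult dentate gyrus these transcripts mark dividing progenitors.

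Promoter sequence was read from RefSeq (GRCm38.p6) in windows from 250 bases before to 50 bases after the start of each gene, and 32 of the 41 genes had at least 1 window (35 windows). The letters searched on both strands were TTTGAA or TTCGAA for the CHR, CCAAT for the CCAAT box, and TTTCCCGC, TTTGGCGC, TTCCCGCC or TTGGCGCC for an E2F site. A CHR was present in 24 of the 32 genes and in 77.1% of their windows, beside 19.2% of all 32851 promoter windows of the mouse. A CCAAT box was present in 24 of the 32 genes and in 77.1% of their windows, beside 37.4% of all windows. Both were present in 22 genes and in 71.4% of their windows, beside 7.52% of all windows, whereas an E2F site was found in 2 genes (Ccnb1 and Cdk1) and in 5.71% of their windows, beside 3.77%. A CHR that began 20 to 40 bases after the end of a CCAAT box was present in 14 of the 32 genes and in 48.6% of their windows, beside 0.849% of all windows; this range was chosen after the positions were seen. Birc5, Mad2l1, Melk, Nuf2, Nusap1 and Pttg1 held neither the CHR nor the CCAAT letters in these windows. The windows of a gene with 2 start sites overlap, the shares are descriptions, and a match is not a measured binding site.

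**Figure D1:**
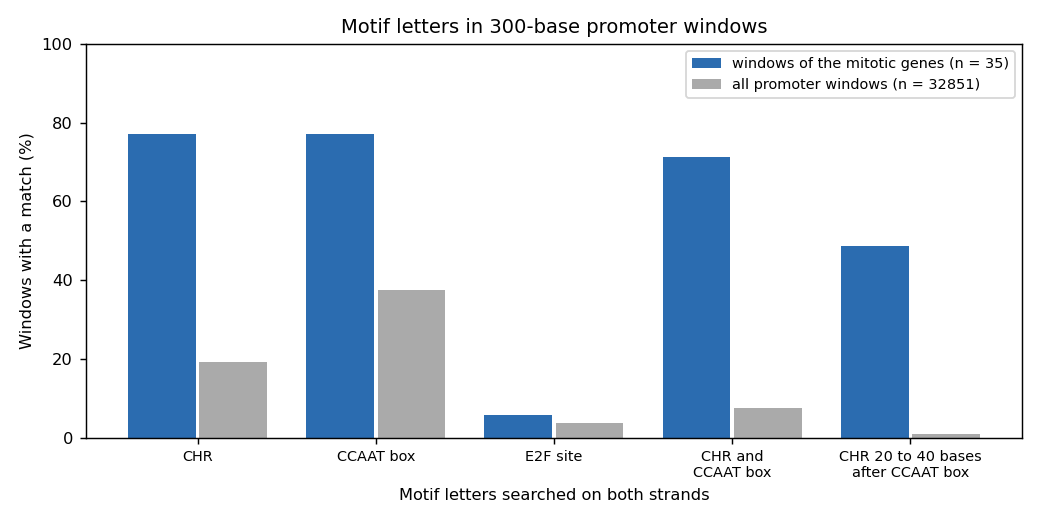
Share of promoter windows (%) that hold the motif letters on either strand, for the 35 windows of the mitotic genes (blue) and for all 32851 windows (grey). CHR and CCAAT letters occurred together in 71.4% of the windows of the mitotic genes and in 7.52% of all windows.

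The stretch from 130 bases before to 50 bases after the start site is printed for 7 genes, to show how the letters lie in genes that fell far (Cdk1, Plk1, Aurka, Cdc20 and Prc1), in a gene that fell little (Bub3) and in a gene with no call (Pttg1). They are chr10:69352863-69353042 (minus strand) for Cdk1, chr7:122159305-122159484 (plus strand) for Plk1, chr2:172370521-172370700 (minus strand) for Aurka and chr4:118437294-118437473 (minus strand) for Cdc20. The others are chr7:80294321-80294500 (plus strand) for Prc1, chr7:131560240-131560419 (plus strand) for Bub3 and chr11:43425932-43426111 (minus strand) for Pttg1. Each is written 5′ to 3′ along the gene, and capitals mark the CHR (TTTGAA or its reverse complement TTCAAA) and the CCAAT box (CCAAT or its reverse complement ATTGG).
Cdk1: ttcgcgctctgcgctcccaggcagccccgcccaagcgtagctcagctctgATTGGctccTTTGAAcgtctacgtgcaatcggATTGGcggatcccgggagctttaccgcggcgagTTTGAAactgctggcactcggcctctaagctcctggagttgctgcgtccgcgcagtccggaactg
Plk1: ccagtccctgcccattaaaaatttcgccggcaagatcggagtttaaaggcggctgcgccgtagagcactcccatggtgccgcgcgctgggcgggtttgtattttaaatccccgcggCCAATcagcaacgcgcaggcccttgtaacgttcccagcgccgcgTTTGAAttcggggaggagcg
Aurka: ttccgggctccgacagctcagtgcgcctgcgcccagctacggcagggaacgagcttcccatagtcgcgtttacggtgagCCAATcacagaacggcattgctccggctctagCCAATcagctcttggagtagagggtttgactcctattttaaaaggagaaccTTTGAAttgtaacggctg
Cdc20: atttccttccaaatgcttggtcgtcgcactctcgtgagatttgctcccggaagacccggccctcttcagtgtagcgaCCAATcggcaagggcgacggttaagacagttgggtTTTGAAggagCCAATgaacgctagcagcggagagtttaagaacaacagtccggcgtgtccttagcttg
Prc1: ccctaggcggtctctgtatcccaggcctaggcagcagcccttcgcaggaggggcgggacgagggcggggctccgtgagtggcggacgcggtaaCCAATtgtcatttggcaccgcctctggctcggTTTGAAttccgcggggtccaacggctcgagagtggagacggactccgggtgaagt
Bub3: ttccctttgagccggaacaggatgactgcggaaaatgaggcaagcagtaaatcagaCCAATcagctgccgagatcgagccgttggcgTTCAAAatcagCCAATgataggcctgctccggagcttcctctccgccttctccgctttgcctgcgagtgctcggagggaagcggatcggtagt
Pttg1: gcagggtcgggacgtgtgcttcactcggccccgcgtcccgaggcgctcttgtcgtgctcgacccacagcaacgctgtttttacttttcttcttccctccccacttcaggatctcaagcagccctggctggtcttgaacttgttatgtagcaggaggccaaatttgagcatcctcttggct
In Cdc20, Prc1, Plk1 and Aurka a CCAAT box lay upstream of the CHR. Bub3 held both in the same order, but with its CHR on the opposite strand (TTCAAA). Cdk1 also had a CCAAT box upstream of each CHR, with the boxes on the opposite strand (ATTGG). Whether the letters or their strand bear on the size of the fall was not tested. The window of Pttg1 held neither. Genes that fell could also lack both: Birc5, Nusap1 and Mad2l1, not printed here, held neither in their windows. They had log2 fold changes of -3.53, -3.12 and -2.70 at day 7.

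Most of the mitotic genes that could be measured were lower at day 2 and at day 7 than in proliferation, and none was called between day 2 and day 7. Early differentiation against proliferation had 29 of the 31 tested genes called lower and 0 called higher, where 15% of all tested genes were called lower and 16.7% higher. A gene was called where limma gave a Benjamini-Hochberg adjusted p under 0.05 over all 11009 genes and a fold of at least 1.5. Late differentiation against proliferation had 28 called lower and 0 called higher, beside 16.1% and 17.6% of all genes. The filter itself favours such a count, since a gene detected in proliferation alone could pass it only by being high there. Of the 31 genes, 4 (Ttk, Ect2, Cdc25b and Melk) were detected on the proliferation arrays and on no other, so no p is given for them below, and the others numbered 25 called of 27 at day 2 and 24 of 27 at day 7. In all, 10 of the 31 would not have passed on the differentiation arrays alone: these 4 and Aurkb, Tpx2, Cdca2, Ndc80, Cdc25c and Espl1. Of the 21 that would have, 19 were called lower at day 2 and 18 at day 7. The shares were 14.4% and 15.5% of the 10350 genes that passed in this way. With no filter at all, 29 of the 39 genes on the array were called lower at day 2 and 28 at day 7 (median log2 fold changes of the 39 genes -2.43 and -2.46), beside 8.53% and 9.05% of 19057 genes. The median log2 fold change of the 31 genes was -2.89 at day 2 (range -5.30 to 0.56) and -2.70 at day 7 (range -5.05 to 0.28), while the medians of all genes were 0.002 and 0.01. At each time 21 of the 31 genes were lower by at least 4-fold and 15 by at least 8-fold. Among the 100 genes with the lowest fold changes of all 11009, 18 at day 2 and 15 at day 7 were on the list. These counts include genes that passed the filter only through the proliferation arrays. The 21 genes that would have passed on the differentiation arrays alone had medians of -3.47 at day 2 and -3.53 at day 7. The median of all genes that passed in this way was 0.04 at each time. Adjusted p was read for the called genes among the 21 that would have passed on the differentiation arrays alone. It lay between 3.2e-09 and 0.000171 at day 2 and between 3.17e-09 and 3.7e-05 at day 7. The SE of the 31 genes lay between 0.09 and 0.28. Both comparisons used the same proliferation arrays. In bulk RNA, fewer dividing cells and less of a transcript per cell cannot be told apart.

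**Figure D2:**
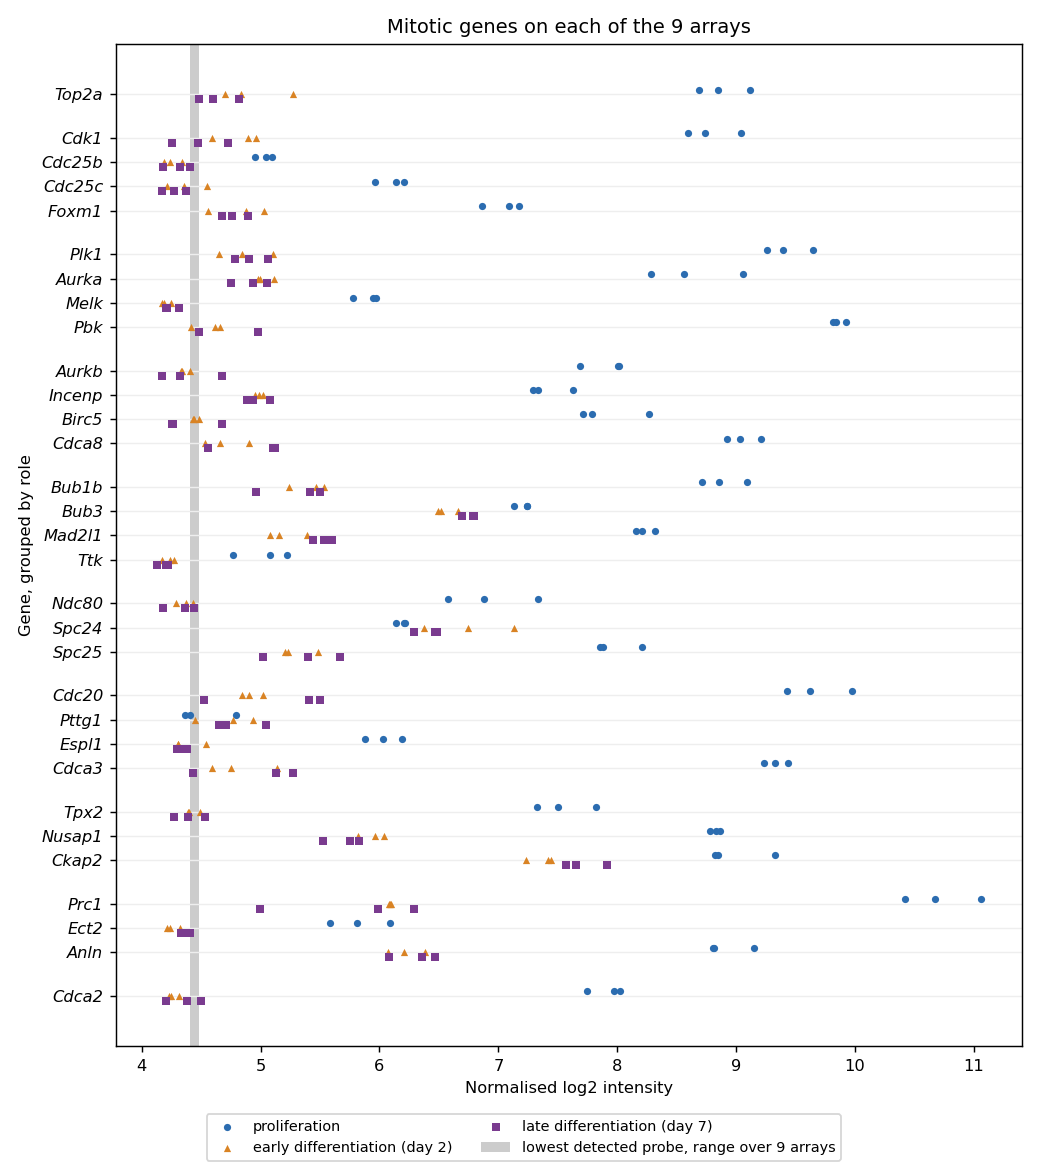
Normalised log2 intensity (horizontal axis) of each of the 31 tested genes on the 9 arrays, grouped by role, with circles for proliferation, triangles for early and squares for late differentiation, and 1 symbol per array. The 3 proliferation arrays lie to the right of all 6 differentiation arrays except in Spc24 and Pttg1, and many differentiation values sit near the grey band, the lowest level of a detected probe on each array (4.41 to 4.48).

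The arrays of the groups did not overlap, with proliferation higher, in 29 of the 31 genes at each time (25 of 27 without the 4 genes detected in proliferation alone), beside 30% of all genes at day 2 and 29.9% at day 7. The exceptions at both times were Spc24 and Pttg1. The fold changes of the dimmest genes are limited from below: 7 called genes were detected on no early array and 6 on no late array, and for these only a bound is given ("at least"), the proliferation mean against the higher of the gene's own level and the lowest detected level on each array. Neither median changed with these genes at their bounds. At day 7 it could not have changed, since a bound only shrinks a fall and all of these genes already fell less than the median. Genes detected on some arrays of a stage kept their fitted values there. Some further values rest on partial detection: Cdc25c, Espl1 and Tpx2 were detected on 1 early array and Pbk on 2, while Cdk1, Aurkb, Birc5, Tpx2, Cdca2 and Ndc80 were detected on 1 late array and Cdca3 on 2, so that their fold changes at that time are measured against the limit of detection.

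Top2a encodes the topoisomerase that untangles replicated chromosomes. It read 8.69, 8.85 and 9.12 on the log2 scale in proliferation, 4.83, 5.27 and 4.70 in early differentiation and 4.82, 4.60 and 4.48 in late differentiation. The gap between the stages was many times the spread within them: the log2 fold change was -3.95 ± 0.17 (SE, 3 arrays per stage) at day 2 (adjusted p = 3.45e-08) and -4.25 ± 0.17 at day 7 (adjusted p = 1.48e-08). A second Top2a probe changed less (log2 fold change -1.15 at day 2) and was also called lower at both times. Mki67, the proliferation marker, had no probe listed with its symbol.

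In the Cdk1 engine all 4 tested genes were called lower at both times, beside 15% of all genes at day 2 and 16.1% at day 7. Of the 4, Cdc25b and Cdc25c passed the filter only through the proliferation arrays, which leaves Cdk1 and Foxm1. Cdk1 read 8.60, 8.74 and 9.04 in proliferation, 4.59, 4.89 and 4.96 at day 2 and 4.73, 4.47 and 4.25 at day 7. It was thus lower on each differentiation array than on any proliferation array, by a log2 fold change of -3.98 ± 0.16 at day 2 (adjusted p = 2.36e-08) and -4.31 ± 0.16 at day 7 (adjusted p = 1.27e-08), or 15.8-fold and 19.9-fold. Foxm1, the transcription factor of late cell cycle genes, had log2 fold changes of -2.22 and -2.26. Of the phosphatases that activate Cdk1, Cdc25c was lower by a log2 fold change of -1.73 at day 2 and by at least 3.16-fold at day 7. Cdc25b was dim already in proliferation. It read 5.04, 4.95 and 5.10 in proliferation, 4.18, 4.23 and 4.34 at day 2 and 4.18, 4.32 and 4.41 at day 7, and was not detected on any differentiation array. Only a bound can be given, of at least 1.52-fold at day 2, and its call was lost with a background offset of 50 and with both background-subtracted scales. Of the cyclins, Ccnb1 had no probe listed. Ccna2 was detected on 2 proliferation arrays and on no other, and Ccnb2 on 1 late array, so that neither passed the filter and neither was tested.

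The mitotic kinases held the largest change of the list. Pbk, a kinase active in mitosis, read 9.82, 9.93 and 9.85 in proliferation, 4.41, 4.66 and 4.62 at day 2 and 4.98, 4.98 and 4.48 at day 7. Its 3 proliferation values lay close together, and the log2 fold change was -5.30 ± 0.14 at day 2 (adjusted p = 3.2e-09, 39.4-fold) and -5.05 ± 0.14 at day 7 (adjusted p = 3.17e-09, 33.1-fold). Plk1, the polo kinase of mitotic entry and spindle assembly, had log2 fold changes of -4.57 and -4.52. Aurka, the Aurora kinase of the spindle poles, had -3.61 and -3.72. Melk, a kinase of dividing progenitors, read 5.78, 5.94 and 5.97 in proliferation and between 4.17 and 4.31 on the 6 differentiation arrays. Melk was detected on each proliferation array and on no differentiation array, with bounds of at least 2.77-fold lower at day 2 and at least 2.73-fold lower at day 7, so that its change cannot be ranked against those of the other kinases. Nek2, a centrosome kinase, was detected by none of its 3 probes on any array and was not tested.

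The chromosomal passenger complex corrects faulty attachments at the centromere and later guides cytokinesis. All 4 subunits were called lower at both times, beside 15% of all genes at day 2 and 16.1% at day 7. Of the 4, Aurkb passed the filter only through the proliferation arrays. Cdca8 (borealin) read 8.92, 9.03 and 9.21 in proliferation, 4.66, 4.53 and 4.90 at day 2 and 5.12, 5.10 and 4.56 at day 7. The log2 fold change was -4.36 ± 0.16 (adjusted p = 1.67e-08) and -4.13 ± 0.16 (adjusted p = 1.52e-08), and late replicate 3 was lower than the other two late arrays. Aurkb, the kinase of the complex, fell by at least 11.1-fold at day 2, where no array detected it, and had a log2 fold change of -3.52 at day 7. Birc5 (survivin) had -3.47 and -3.53. Incenp, the scaffold of the complex, changed least and read 7.29, 7.33 and 7.63 in proliferation, 4.95, 5.02 and 4.99 at day 2 and 4.88, 5.08 and 4.93 at day 7. Its 6 differentiation values stood close together and well below proliferation (log2 fold change -2.43 ± 0.11, adjusted p = 5.06e-08, and -2.46 ± 0.11, adjusted p = 3.67e-08).

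The spindle checkpoint genes differed among themselves. Bub1b (BubR1), a subunit of the complex that inhibits Cdc20, read 8.71, 8.85 and 9.09 in proliferation, 5.47, 5.53 and 5.24 at day 2 and 5.41, 5.50 and 4.96 at day 7. It fell by 3.47 ± 0.16 at day 2 (adjusted p = 4.9e-08) and by 3.59 ± 0.16 at day 7 (adjusted p = 3.01e-08) on the log2 scale. Mad2l1, whose protein Mad2 binds Cdc20, had log2 fold changes of -3.02 and -2.70. Ttk, the kinase that starts the checkpoint signal, was dim already in proliferation (4.77, 5.08 and 5.22) and not detected on any differentiation array. It was lower by at least 1.51-fold at day 2 and at least 1.49-fold at day 7, and lost its call under the same 3 settings as Cdc25b. Bub3, the partner that brings Bub1 and BubR1 to kinetochores, stood apart from these. It read 7.13, 7.24 and 7.24 in proliferation, 6.66, 6.51 and 6.49 at day 2 and 6.70, 6.78 and 6.80 at day 7. The stages did not overlap, but the difference was small: the log2 fold change was -0.65 ± 0.09 at day 2 (adjusted p = 0.000171), past the 1.5-fold minimum, and -0.45 ± 0.09 at day 7 (adjusted p = 0.00194), short of it. Without normalization between arrays Bub3 was called at day 7 (-0.94), and with an offset of 50 it was not called at day 2 (-0.50). Bub1 was detected by neither of its probes on any array and was not tested.

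In the NDC80 complex, which links kinetochores to microtubules, 2 of the 3 tested subunits were called lower at both times. The shares of all genes were 15% at day 2 and 16.1% at day 7. Of these 2 subunits, Ndc80 passed the filter only through the proliferation arrays. Spc25 read 7.86, 8.21 and 7.88 in proliferation, 5.20, 5.49 and 5.23 at day 2 and 5.40, 5.67 and 5.02 at day 7. Its stages lay far apart, with log2 fold changes of -2.68 ± 0.17 (adjusted p = 4.22e-07) and -2.62 ± 0.17 (adjusted p = 4.4e-07). Ndc80 itself fell by at least 5.66-fold at day 2, where no array detected it, and had a log2 fold change of -2.60 at day 7. The probes of Spc24 disagreed. The brighter probe, which represents the gene here, read 6.20, 6.22 and 6.14 in proliferation, 6.37, 6.75 and 7.13 at day 2 and 6.29, 6.48 and 6.47 at day 7, higher on each differentiation array than on any proliferation array. Its log2 fold change of 0.56 ± 0.16 at day 2 (adjusted p = 0.0136) stayed short of 1.5-fold (0.76 and called higher without early differentiation replicate 1), and that of 0.23 ± 0.16 at day 7 did not pass (adjusted p = 0.27). The dimmer Spc24 probe read 5.29, 5.12 and 5.07 in proliferation, was detected on no differentiation array and was called lower at both times (log2 fold changes -0.87 and -0.91). The direction of Spc24 therefore depends on the probe. Nuf2, the fourth subunit, was detected on 1 proliferation array by 1 of its 2 probes and was not tested.

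Among the anaphase genes, Cdc20 read 9.43, 9.62 and 9.97 in proliferation, 4.84, 4.90 and 5.02 at day 2 and 5.50, 5.41 and 4.52 at day 7. The log2 fold change was -4.76 ± 0.23 at day 2 (adjusted p = 7.49e-08, 27.0-fold) and -4.53 ± 0.23 at day 7 (adjusted p = 9.25e-08, 23.1-fold), and late replicate 3 was the lowest of all 9 arrays. Cdca3, a factor that promotes mitotic entry, had log2 fold changes of -4.51 and -4.39. Espl1 (separase), the protease that cuts cohesin, had -1.65 at day 2 and fell by at least 3.01-fold at day 7. Pttg1 (securin), the inhibitor of separase, read 4.80, 4.36 and 4.40 in proliferation, 4.93, 4.77 and 4.44 at day 2 and 4.71, 4.65 and 5.05 at day 7. These values overlap and lie at the limit of detection: the probe was detected on 1 proliferation, 2 early and 3 late arrays. The log2 fold change was 0.20 ± 0.17 (95% interval -0.17 to 0.56, adjusted p = 0.351) at day 2 and 0.28 ± 0.17 (-0.08 to 0.65, adjusted p = 0.178) at day 7. With proliferation values at that limit, a fall could not have been measured with this probe. Ube2c, the ubiquitin-conjugating enzyme of the APC/C, was detected on 2 proliferation arrays and on no other and was not tested.

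All tested spindle and cytokinesis genes were called lower at both times, beside 15% of all genes at day 2 and 16.1% at day 7. Of these, Tpx2 and Ect2 passed the filter only through the proliferation arrays. The levels left were unequal among the genes that stayed detected. Tpx2, an activator of Aurora A on the spindle, read 7.32, 7.50 and 7.82 in proliferation, 4.39, 4.39 and 4.49 at day 2 and 4.53, 4.39 and 4.27 at day 7. It was detected on 1 array at each of these times and its means lay at the limit of detection. The log2 fold changes of -3.12 ± 0.13 and -3.15 ± 0.13 are therefore set by that limit. No p is given, since Tpx2 passed the filter only through the proliferation arrays. Nusap1, a microtubule-binding protein of the spindle, had -2.89 and -3.12. Ckap2, a spindle protein, read 8.85, 8.83 and 9.33 in proliferation, 7.24, 7.42 and 7.45 at day 2 and 7.92, 7.66 and 7.57 at day 7. It stayed well above the limit of detection, with a log2 fold change of -1.63 ± 0.15 (adjusted p = 7.6e-06) and -1.29 ± 0.15 (adjusted p = 3.7e-05). Hmmr was detected by neither of its probes on any array and was not tested.

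Of the cytokinesis genes, Prc1, which bundles the microtubules of the midzone, read 10.42, 10.67 and 11.06 in proliferation, 6.09, 6.08 and 6.10 at day 2 and 6.29, 5.99 and 4.99 at day 7. The early arrays agreed closely while late replicate 3 lay well below the other two, and the log2 fold change was -4.63 ± 0.28 (adjusted p = 3.46e-07, 24.8-fold) and -4.96 ± 0.28 (adjusted p = 1.71e-07, 31.2-fold). Anln (anillin), a scaffold of the contractile ring, had -2.70 and -2.62 and stayed detected on all arrays. Ect2, the exchange factor that activates RhoA at the midzone, read 5.58, 5.81 and 6.09 in proliferation and between 4.22 and 4.41 on the differentiation arrays. No differentiation array detected it, with bounds of at least 2.64-fold lower at day 2 and at least 2.60-fold lower at day 7. Racgap1, its partner, was detected on no array and was not tested. Cdca2 (Repo-Man), which recruits a phosphatase to chromosomes at mitotic exit, read 7.75, 7.98 and 8.02 in proliferation, 4.31, 4.23 and 4.25 at day 2 and 4.38, 4.50 and 4.21 at day 7. It went from clearly detected to the limit of detection, by at least 11.2-fold at day 2 and by a log2 fold change of -3.55 ± 0.11 at day 7. No p is given, since Cdca2 passed the filter only through the proliferation arrays.

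**Figure D3:**
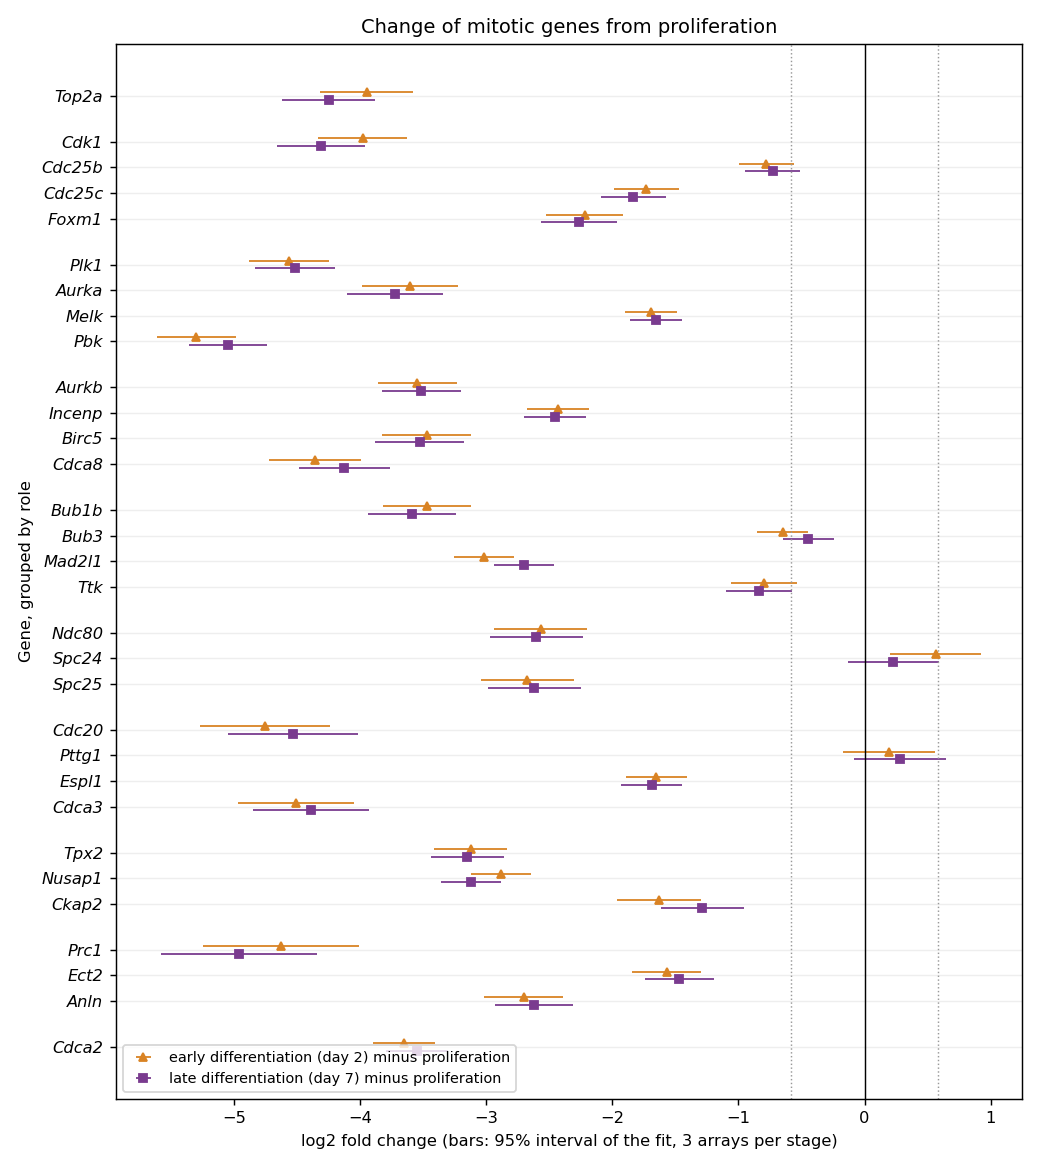
Log2 fold change (horizontal axis) of the 31 tested genes from proliferation to early (triangles) and late (squares) differentiation, with 95% intervals of the fit and dotted lines at 1.5-fold. The early and late values of each gene lie close together, between -5.30 and 0.56, and Bub3, Spc24 and Pttg1 lie nearest to 0.

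Several probes were kept for 13 genes. All 17 further probes were called lower at both times, where 15% of all genes were called lower at day 2 and 16.1% at day 7. However, 8 of them, the second probe of Spc24 included, were detected in proliferation alone and passed the filter only for that reason. The other 9 were also detected on differentiation arrays. Of these, the second probe of Bub1b, a further probe of Cdc20 and the further probes of Birc5 were detected there on too few arrays to pass without proliferation. The fitted change differed between probes of the same gene: at day 7 the 4 Cdc20 probes lay between -4.53 and -1.89 on the log2 scale, and the second probes of Bub1b and Cdca8 at -1.87 and -2.86. The Cdc20 probe at -1.89 and this Cdca8 probe were detected on no differentiation array, and this Bub1b probe on 1 early and 1 late array. Their values are therefore limited by detection. Both kept Top2a probes were detected on all 9 arrays and had -4.25 and -1.50 at day 7. The further probes of Birc5, Spc25 and Mad2l1 lay within 0.3 of the probe that represents the gene.

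**Figure D4:**
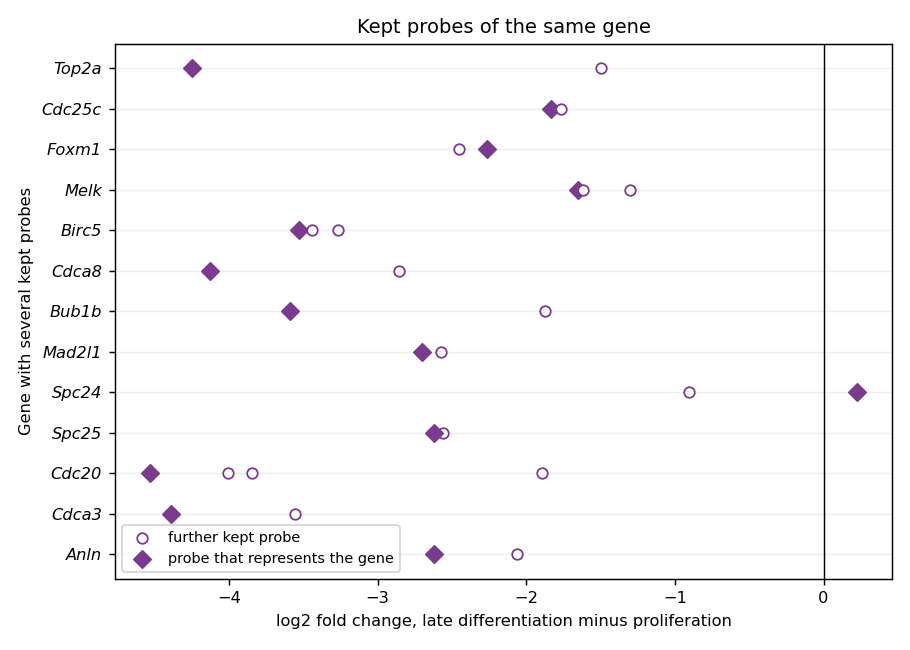
Log2 fold change at day 7 (horizontal axis) of each kept probe of the 13 genes with several, with filled diamonds for the probe that represents the gene and open circles for the further probes. Only in Spc24 did the probes lie on both sides of 0 (0.23 and -0.91).

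Between day 2 and day 7 no further change was called in any of the 31 genes, where 1.54% of all genes were called higher and 2.34% lower in late differentiation. The median log2 fold change was 0.03, with an SD of 0.18 among the genes and a range from -0.34 (Spc24) to 0.35 (Ckap2). At an unadjusted p under 0.05 there were 2 genes, Mad2l1 and Ckap2, beside 24.0% of all genes. Mad2l1 read 5.39, 5.08 and 5.16 at day 2 and 5.60, 5.53 and 5.44 at day 7, which do not overlap (log2 fold change 0.32 ± 0.11, 95% interval 0.08 to 0.56, adjusted p = 0.103). For Ckap2 the log2 fold change was 0.35 ± 0.15 (95% interval 0.015 to 0.68, adjusted p = 0.191). The arrays did not overlap in 4 genes, Mad2l1, Ckap2, Bub3 and Ect2, all higher at day 7, beside 14.7% of all genes. A p that misses the threshold does not show equal levels. In 24 of the 31 genes the 95% interval of the difference stayed within 1.5-fold either way. Among these, Ttk, Ect2, Cdc25b and Melk were detected on no array of either day, and Aurkb, Tpx2, Cdca2, Ndc80, Cdc25c and Espl1 on few. These genes lay near the limit of detection on both days, so their intervals cannot show how close the levels were. The widest interval was that of Prc1 (-0.95 to 0.29). All day 2 samples were hybridised to a separate BeadChip from the proliferation and late samples, so that chip and stage cannot be told apart in either comparison with day 2.

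Within a stage, many of the listed genes were ordered alike over the arrays. Of the 3 proliferation arrays, replicate 3 held the highest value of 23 of the 31 genes and replicate 1 the lowest value of 25, where 37.5% of all genes were highest on replicate 3 and 32.4% lowest on replicate 1. Their mean level was 7.62, 7.75 and 7.92 on the 3 proliferation arrays and 5.11, 5.09 and 4.87 on the 3 late arrays, of which replicate 3 held the lowest value of 20 genes. On the early arrays the mean lay between 4.98 and 5.04. With only the arrays numbered 1 and 2 of every stage, a choice made after seeing the data, 28 genes were called lower at day 7, 29 at day 2 and 0 between the days. Of all 11009 genes, 1746 were then called lower at day 7 and 1624 at day 2, and 326 lower and 295 higher between the days.

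Other genes of the pathway were counted in the same way. Among other kinetochore and checkpoint genes 10 of 16 tested were called lower and 0 higher at each time, beside 15% and 16.1% of all genes called lower. Of the 10 called genes, 6 (Knl1, Pmf1, Spdl1, Ska3, Sgo1 and Haspin) were detected in proliferation alone and could pass the filter only by being high there, and without these the count was 4 of 10. Of the 9 that would have passed on the differentiation arrays alone, 3 were called lower at each time. Among all genes that passed in this way the shares were 14.4% and 15.5%. Sgo2a, a shugoshin that protects centromeric cohesin, had log2 fold changes of -2.81 and -2.73. Kntc1, a subunit of the kinetochore complex that recruits Mad1 and Mad2, had -2.78 and fell by at least 6.76-fold at day 7. It was detected on 1 early and on no late array. Among other spindle and cytokinesis genes 15 of 17 were called lower at day 2 and 14 at day 7 (9 and 8 of 11 without those detected in proliferation alone). Of the 7 that would have passed on the differentiation arrays alone, 5 were called lower at day 2 and 4 at day 7. The list was led by Cdkn3, a phosphatase of cyclin-dependent kinases (at least 11.2-fold and -3.52), which was detected on no early and on 1 late array. Ckap5, a microtubule polymerase that also serves interphase cells, was called higher at both times (1.12 ± 0.12, adjusted p = 2.24e-05, and 1.02 ± 0.12, adjusted p = 3.89e-05).

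The APC/C and the phosphatases of mitotic exit are also used outside mitosis, and the medians of their lists lay near 0. Of 15 tested genes of the APC/C and its regulators, 1 was called lower and 2 higher at day 2, and 1 lower and 4 higher at day 7 (medians 0.16 and 0.06), shares near or below the 15% lower and 16.7% higher of all genes at day 2, and below the 16.1% lower and above the 17.6% higher at day 7. Anapc2, the cullin subunit, was called higher (1.10 ± 0.11, adjusted p = 1.15e-05, and 1.55 ± 0.11, adjusted p = 7.47e-07), as was Anapc16 (0.95 and 0.84), while Anapc15 was called lower (-0.69 at day 2, at least 1.59-fold at day 7). Anapc15 was detected on 1 early and on no late array and passed the filter only through the proliferation arrays. Of the 13 genes that would have passed on the differentiation arrays alone, 0 were called lower at either time, beside 14.4% and 15.5% of all such genes. Fzr1 (Cdh1), the activator that replaces Cdc20 after mitosis, had log2 fold changes of -0.45 and -0.46, short of 1.5-fold. Of 13 genes that counteract Cdk1 or belong to mitotic phosphatases, 1 was called lower and 2 higher at day 2, and 2 each at day 7. These shares too were near or below those of all genes. Pkmyt1, a kinase that inhibits Cdk1, was called higher (1.90 ± 0.14, adjusted p = 1.23e-06, and 1.35 ± 0.14, adjusted p = 1.36e-05), and Cdc25a, which activates Cdk kinases, lower (-1.12 and -1.40).

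Among the transcription factors that act at E2F, CHR and CCAAT elements, 9 of 18 tested genes were called lower and 1 higher at each time (medians -0.63 and -0.52), beside 15% and 16.1% of all genes called lower. The 17 other than E2f2 would have passed on the differentiation arrays alone. Of these, 8 were called lower at each time (medians -0.50 and -0.31), beside 14.4% and 15.5% of all genes that passed in this way. E2f1 had log2 fold changes of -2.52 ± 0.13 (adjusted p = 1.13e-07) and -2.36 ± 0.13 (adjusted p = 1.51e-07), and Rbl1 (p107) had -2.43 and -2.18. E2f2, detected in proliferation alone, was lower by at least 3.94-fold and 3.89-fold. Mybl2 (B-Myb), the MuvB partner at mitotic genes, had -1.55 and -1.74. The retinoblastoma gene Rb1 was the gene called higher (0.98 and 0.69), and the 3 subunits of NF-Y (Nfya, Nfyb and Nfyc) were not called at either time.

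**Figure D5:**
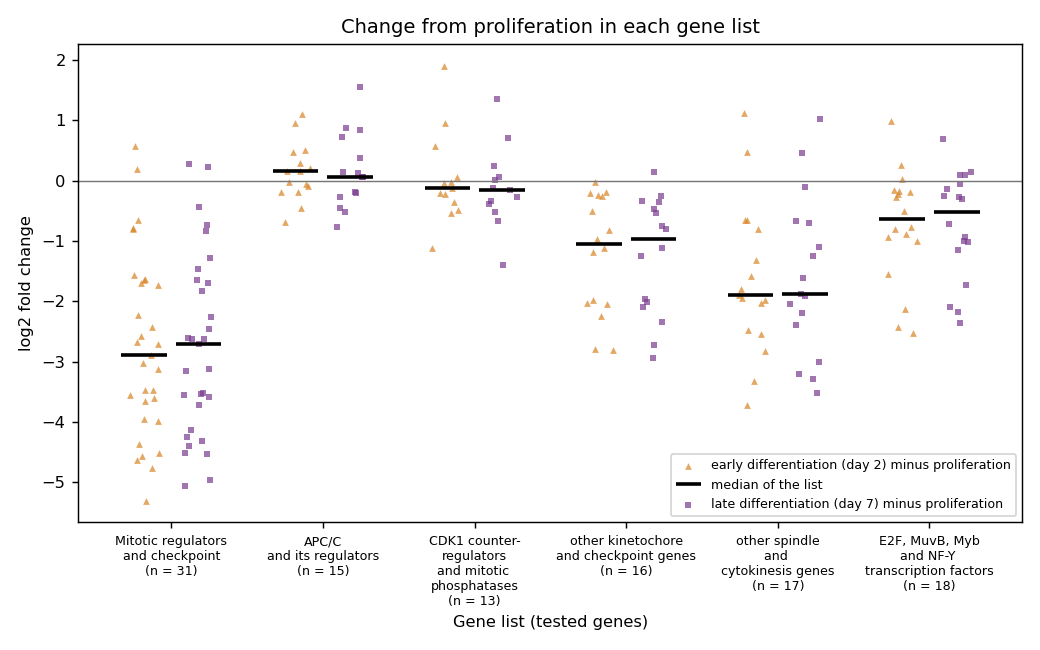
Log2 fold change from proliferation (vertical axis) of each tested gene in the mitotic list and in 5 further lists, with triangles for early and squares for late differentiation and a bar at the median of each list. The medians of the mitotic list are -2.89 and -2.70, those of the APC/C list 0.16 and 0.06.

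Between 18310 and 19919 probes were detected per array. Signal averaged 217.7 to 227.5 in proliferation, 156.6 to 170.7 in early and 172.5 to 179.7 in late differentiation, and no 2 arrays were identical. All 4 neural stem cell markers (Nes, Sox2, Vim and Fabp7) were detected on all 9 arrays, with a summed level of 2848 to 3785 in proliferation, 4395 to 5014 at day 2 and 4799 to 6269 at day 7. They did not move together: Vim (0.85 and 1.12) and Sox2 (0.69 and 0.79) were called higher at both times, Fabp7 was called lower at both (-0.90 and -1.72) and Nes at day 2 (-0.66), with -0.09 at day 7. The summed level of 6 astrocyte markers was 5751 to 10920, 14160 to 16310 and 13370 to 14620, and that of 4 ependymal markers 122.7 to 133.8, 616.1 to 878.4 and 811.4 to 1072, in the same order. The brightest astrocyte marker, Slc1a3, was called higher at both times (0.62 and 0.59), as were Gfap (5.59 and 4.35) and Aqp4 (4.14 and 3.53). Slc1a2 was called higher at day 7 alone (0.81), and Aldh1l1 and S100b were not called. Of 4 neuronal markers Dcx and Rbfox3 were undetected in proliferation (summed level 1877 to 2446) and Tubb3 at day 2 (2172 to 2470), with 1874 to 2145 at day 7. Map2, the brightest neuronal marker, was not called, and only Rbfox3 was called, higher by at least 2.11-fold at day 2. Of 4 measured markers of the oligodendrocyte lineage Sox10 and Mbp were undetected in proliferation (summed level 95.51 to 108.1) and Olig2 and Mbp at day 7 (87.77 to 118.4), with 108.3 to 134.1 at day 2. Olig2 was called lower at both times (-1.14 and -1.30), Pdgfra higher at both (1.23 and 0.72) and Sox10 higher at day 2 (0.71). Markers of microglia, endothelium and fibroblasts were detected on all 3 arrays of no stage. The part of these shifts in cell markers in the fall of the mitotic genes was not tested.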

How the data were processed

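RNA of 9 samples was labelled and hybridised to Illumina MouseWG-6 v2.0 BeadChips, scanned and exported from GenomeStudio by the authors. The deposited intensity of each probe (mean bead signal) was neither background-subtracted nor normalised, although the methods describe a background subtraction, and was deposited with a detection p-value per probe and array. The deposited value table, with the same mean intensity on every array, was used as an alternative only. Intensities were corrected with limma 3.58.1 (R 4.3.3) by a normal-exponential model with the background inferred from the detection p-values (offset 16), quantile normalised and taken to log2. Fold changes of dim probes are made smaller by this offset. Of the probes, 34885 had 1 gene symbol, 18 several and 10378 none. Probes with a detection p under 0.05 on at least 3 arrays were kept (17481 with 1 symbol), and each gene took its kept probe with the highest mean, which left 11009 genes.

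One model held all 9 arrays with a mean for each stage (lmFit, eBayes), and the 3 differences between stages were tested with Benjamini-Hochberg adjustment over all genes. The number of arrays limits the precision. The 41 genes, the other gene lists and the motifs were chosen with earlier results of these data known. Genes of the list were all accounted for, and values per array were given for the largest and smallest change of each role group and for some further genes. Of each other list, fold changes were given for up to 3 called genes with the largest change and for called genes that moved against the majority. Fzr1, Mybl2 and the NF-Y subunits were named outside this rule, after their values were seen. Same-numbered arrays deviated together between early differentiation and proliferation (correlations 0.239, 0.204 and 0.308) and between late and early differentiation (0.318, 0.172 and 0.386), but not in each pair between late differentiation and proliferation (0.0642, 0.0793 and 0.142). The fit had no pairing term, and one was run as an alternative. The other alternatives changed the normalisation, background, probe filter, choice of probe and arrays used.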

Additional observations from a re-analysis of the deposited data

Results flagged for a closer look

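Groups of 3 arrays were not tested for single outlying values. No gene of the mitotic list was called between day 7 and day 2, which does not show equal levels. In the further spindle and cytokinesis genes, the effects at the 2 times differed for 2 genes by the test of the difference itself. Gtse1, a microtubule-associated protein of late cell cycle, was higher at day 7 than at day 2 (log2 fold change 0.87 ± 0.19, adjusted p = 0.0202), and Spag5 (astrin), a spindle and kinetochore protein, was lower (-0.75 ± 0.19, adjusted p = 0.0416). The early arrays lay on their own BeadChip, so that chip and day cannot be told apart for either.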

How the results depend on the processing

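The counts of genes called lower stayed within 1.5 times under 11 planned settings, 9 in which 1 array was left out and 1 added after seeing the data, and no gene of the list was called between day 7 and day 2 under any of these 21 settings. Leaving out 1 array gave 24 to 28 genes called lower at day 7, 25 to 29 at day 2 and 0 between the days. Of all genes, 10779 to 10896 in number, 1677 to 1819 were then called lower at day 7 and 1562 to 1678 at day 2. Without any 1 proliferation array only 27 genes passed the filter, since the others were detected on 3 arrays only. In the paired analysis, with replicate number as a replicate block, the counts were 28, 29 and 0 and no count moved. Of all 11009 genes, 1800 were then called lower at day 7 and 1684 at day 2. The direction of Spc24 turned with the probe: with the kept probe of largest variance its log2 fold change was -0.91 at day 7 and -0.87 at day 2, both called. Spc24 passed the 1.5-fold minimum upwards at day 2 without early differentiation replicate 1 (0.76), with the background subtracted (0.76) and in the deposited value table (0.70). Cdc25b and Ttk lost their calls with an offset of 50 and with both background-subtracted scales, where their log2 fold changes at day 7 fell to between -0.36 and -0.08. Without normalisation between arrays the median of all genes shifted to -0.31 at day 7 and -0.41 at day 2, and calls over all genes moved from 1776 lower and 1938 higher to 3754 and 1026 at day 7 and from 1656 and 1843 to 4305 and 804 at day 2. The genes of the list then had medians of -3.17 and -3.45, with 29 called lower at each time. Signal near background limits what can be said of the dim genes, and the 10 genes that were not tested are not shown to be unchanged.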
